A study of Mus musculus with 16 samples.

Results

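The genes described here are 26 genes of cholesterol synthesis and of its control by the sterol regulatory element-binding proteins (SREBPs), out of 38087 genes in a table of exon counts from mouse gonads. They were taken by name from a fixed list, and that list was chosen with earlier results of these data known. By symbol 25 of them were found, and Msmo1, listed under its older symbol Sc4mol, was found by gene ID. By role, 7 act in the mevalonate arm, 3 lead to lanosterol, 8 turn lanosterol into cholesterol, 7 form the SREBP machinery and 1, Stard4, carries sterols between membranes. All 26 passed the filter on low counts in every comparison.

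Total RNA was sequenced from whole testes of males and whole ovaries of females that were either germ-free (GF), raised without microbes, or conventionally raised (CV), with a normal gut microbiota. There were 3 GF and 4 CV testis libraries, and 5 GF and 4 CV ovary libraries. All groups shared the strain C57BL/6j, an age of 15 to 16 weeks and collection between zeitgeber times 2 and 4, in hours after lights on. Organ and sex cannot be told apart in this design, and the labels name no batch, cage, litter or ovarian cycle stage. Counts summed to between 25880591 and 28266867 per testis library and between 12912251 and 15907297 per ovary library. Whether each library stands for its own animal is not stated, so a p-value here reflects only how much these samples vary, and part of that may be technical.

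Cells make cholesterol from acetyl-CoA by way of mevalonate, isoprenoid phosphates, squalene and lanosterol. When membrane sterol is low, Scap escorts SREBP from the endoplasmic reticulum to the Golgi, where the site-1 and site-2 proteases (Mbtps1 and Mbtps2) release the part that activates the genes of the pathway; when sterol is high, Insig1 and Insig2 hold Scap back. In gonads cholesterol is the precursor of steroid hormones, and the sterols made by Cyp51 and by the step after it are known as meiosis-activating sterols, from follicular fluid and testis.

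Promoter windows of 4 genes are shown because these genes carry contrasts described below. Hmgcs1 and Idi1 are mevalonate genes with opposite differences between the gonads, and Cyp51 and Msmo1 are sterol demethylating enzymes with opposite differences likewise. Each window runs from 250 bases before to 50 bases after a RefSeq start, 5′ to 3′ on the gene's strand, in build GRCm38.p6. Capitals mark matches, on either strand, to 4 motifs. These were the sterol regulatory element searched as TCACNCCAC, the E box CACGTG, the NF-Y box CCAAT, which reads ATTGG on the other strand, and the cAMP response element TGACGTCA.
Hmgcs1, chr13:119690101-119690400, plus strand: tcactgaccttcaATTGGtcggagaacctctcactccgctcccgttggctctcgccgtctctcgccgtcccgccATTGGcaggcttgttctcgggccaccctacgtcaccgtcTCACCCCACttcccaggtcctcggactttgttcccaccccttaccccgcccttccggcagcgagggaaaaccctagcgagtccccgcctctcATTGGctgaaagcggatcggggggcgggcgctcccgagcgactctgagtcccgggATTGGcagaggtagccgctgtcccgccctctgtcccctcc
Idi1, chr13:8885356-8885655, plus strand: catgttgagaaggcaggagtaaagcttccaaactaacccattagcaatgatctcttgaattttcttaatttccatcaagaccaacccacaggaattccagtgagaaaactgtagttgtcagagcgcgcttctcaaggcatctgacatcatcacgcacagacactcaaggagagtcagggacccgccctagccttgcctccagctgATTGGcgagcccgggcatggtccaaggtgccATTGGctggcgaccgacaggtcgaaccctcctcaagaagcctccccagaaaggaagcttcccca
Cyp51, chr5:4104648-4104947, minus strand: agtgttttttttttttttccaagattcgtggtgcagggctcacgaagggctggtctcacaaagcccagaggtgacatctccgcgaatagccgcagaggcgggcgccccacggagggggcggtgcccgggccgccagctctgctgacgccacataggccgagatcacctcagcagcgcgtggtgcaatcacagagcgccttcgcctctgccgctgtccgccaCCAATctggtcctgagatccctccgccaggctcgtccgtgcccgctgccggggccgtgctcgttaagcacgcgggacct
Msmo1, chr8:64733529-64733828, minus strand: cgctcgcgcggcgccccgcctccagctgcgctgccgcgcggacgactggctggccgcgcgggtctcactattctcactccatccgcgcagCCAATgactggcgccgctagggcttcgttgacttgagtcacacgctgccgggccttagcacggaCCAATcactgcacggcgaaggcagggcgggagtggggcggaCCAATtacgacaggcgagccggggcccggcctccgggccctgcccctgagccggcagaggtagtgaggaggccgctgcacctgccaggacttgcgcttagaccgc

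Windows were found for 22 of the 26 genes, and some genes have several. The NF-Y box was in a window of 18 of these 22 genes (81.8%), against 41.1% of 27025 genes with a window. The E box was in 4 of them (18.2%), namely Dhcr7, Insig1, Sc5d and Scap, against 8.09% of genes. The sterol regulatory element as spelled matched 1 gene, Hmgcs1, as TCACCCCAC at bases -137 to -129 from the start, which is 4.55% of the 22 genes against 1.44% of genes. The cAMP response element matched none of the 22, against 2.03% of genes. These are matches of letters in a short window and say nothing about binding.

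The first comparison was between the gonads, within conventionally raised mice, and it separated the pathway into genes that were higher and genes that were lower in the testis. A gene is said to be called at an adjusted p under 0.05 in edgeR's quasi-likelihood test, with Benjamini-Hochberg adjustment over all genes tested. In CV testes 8 of the 26 genes were called higher than in CV ovaries, where 47.4% of all genes tested were called higher, and 16 were called lower, where 43.8% of all genes were. Most genes differ between these organs, so a call is common, and the size of a difference says more than its call. The median absolute log2 fold change was 1.22 for the 26 genes, below the 1.88 over all genes tested. Levels here are CPM, the count of a gene relative to the library's total, with library sizes scaled by the TMM method over all 16 libraries. The median of all genes moved to 0.11 on the log2 scale in CV testis over CV ovary under TMM, to 0.24 under DESeq2's size factors, to -0.41 under upper quartile scaling and to -0.69 with raw totals. The split of the 26 genes was 8 higher and 16 lower with DESeq2's size factors, 5 and 18 under upper quartile scaling and 4 and 20 with raw totals. The shares of all genes called higher and lower moved likewise, to 40.1% and 52% under upper quartile scaling and to 36.6% and 56.2% with raw totals. In whole organs, fewer cells of a type and less RNA per cell cannot be told apart.

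**Figure D1:**
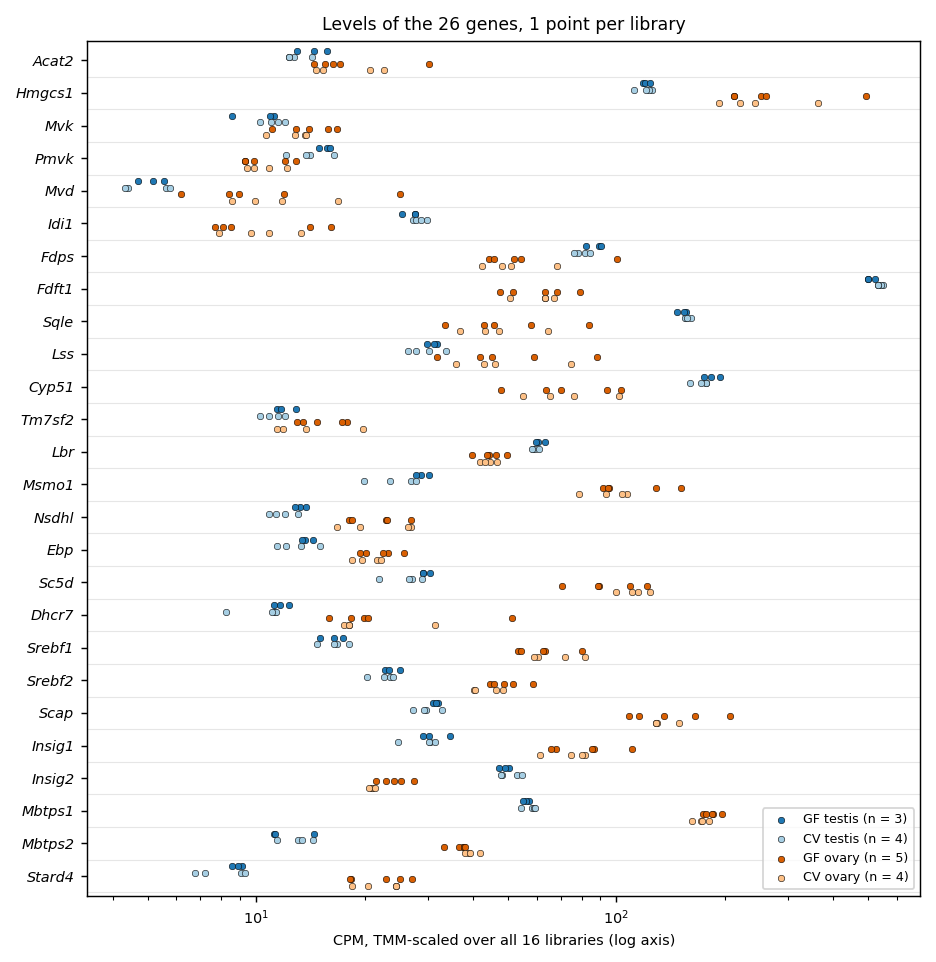
Level of each of the 26 genes in each of the 16 libraries, in CPM on a log axis, with genes from top to bottom in pathway order and 1 point per library in 4 groups. The testis points of Fdft1, Sqle and Insig2 lie to the right of their ovary points, and those of Scap, Srebf1 and Sc5d to the left.

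Fdft1, squalene synthase, which makes the first committed intermediate of the sterol branch, differed most. It stood at 548, 543, 531 and 532 CPM in CV testes, against 63.3, 67.3, 63.2 and 50.6 CPM in CV ovaries. The testis values lay far above the ovary values, with a log2 fold change of 3.14 ± 0.074 (SE), adjusted p = 1.32e-13 (edgeR), an 8.8-fold difference. Sqle, squalene epoxidase, the next enzyme, stood at 161, 156, 155 and 157 CPM in CV testes, against 64.4, 47.1, 43.1 and 36.8 CPM in CV ovaries. The groups did not overlap, and Sqle was 3.28-fold higher in CV testes (log2 fold change 1.71 ± 0.15). Lss, which closes squalene epoxide into lanosterol, was lower instead, at 33.7, 30.2, 27.8 and 26.4 CPM in CV testes, against 75, 46, 42.9 and 35.8 CPM in CV ovaries, with a log2 fold change of -0.76 ± 0.23 (SE), adjusted p = 0.0139 (edgeR). Thus the 3 genes between farnesyl diphosphate and lanosterol did not share a direction.

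The mevalonate arm was split in the same way. Hmgcs1, cytosolic HMG-CoA synthase, stood at 126, 123, 112 and 121 CPM in CV testes, against 364, 242, 221 and 192 CPM in CV ovaries. All 4 testes were below all 4 ovaries, and the log2 fold change was -1.08 ± 0.2. Mvd, mevalonate diphosphate decarboxylase, and Acat2, the cytosolic thiolase, were also lower in CV testes, with log2 fold changes of -1.24 ± 0.21 and -0.51 ± 0.14. In GF testes over GF ovaries Acat2 was not called, at -0.38 (adjusted p = 0.15 in edgeR). Idi1, isopentenyl diphosphate isomerase, was higher, at 29.9, 27.2, 27.9 and 28.7 CPM in CV testes, against 13.3, 10.9, 9.65 and 7.87 CPM in CV ovaries. Its values did not overlap between the gonads, and the log2 fold change was 1.44 ± 0.13. Pmvk, phosphomevalonate kinase, and Fdps, farnesyl diphosphate synthase, were called higher at 0.41 and 0.60 under TMM, but Pmvk turned to -0.12 under upper quartile scaling and -0.39 with raw totals, and Fdps to 0.08 and -0.20. Relative to the median of all genes they lay 0.30 and 0.49 above it under each of the 4 scalings. Mvk, mevalonate kinase, was not called, at -0.19 (95% interval -0.42 to 0.03), or 0.30 below the median of all genes. It was called lower under upper quartile scaling (-0.72), with raw totals (-0.997), in GF testes over GF ovaries (-0.46) and without CV ovary 4 (-0.26, adjusted p = 0.0213 in edgeR).

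Among the enzymes that follow lanosterol, Cyp51 stood apart from the later steps. Cyp51, lanosterol 14α-demethylase, stood at 177, 178, 172 and 160.3 CPM in CV testes, against 101, 76.3, 65.3 and 55.2 CPM in CV ovaries. It was 2.3-fold higher in CV testes, with a log2 fold change of 1.2 ± 0.17 (SE), adjusted p = 0.00022 (edgeR), although with raw totals the value was 0.39 at an adjusted p of 0.055. Msmo1, the C4 sterol methyl oxidase that acts soon after it, stood at 26.9, 27.7, 19.9 and 23.5 CPM in CV testes, against 107, 93.5, 104 and 78.7 CPM in CV ovaries. Here every testis was below every ovary, and the log2 fold change was -1.97 ± 0.12. Sc5d, the C5 desaturase, stood at 28.8, 27, 21.9 and 26.6 CPM in CV testes, against 99.999, 115, 124 and 111 CPM in CV ovaries, again without overlap, with a log2 fold change of -2.11 ± 0.085. Dhcr7, which makes cholesterol from 7-dehydrocholesterol, Nsdhl, the C4 decarboxylase, and Ebp, the sterol isomerase, were lower as well, at -1.03, -0.92 and -0.66. Of the 2 C14 sterol reductases, Tm7sf2 was not called at -0.35 (95% interval -0.71 to -0.00). It was called lower under upper quartile scaling (-0.88), with raw totals (-1.16), in GF testes over GF ovaries (-0.35) and without CV ovary 3 (-0.45) or CV ovary 4 (-0.43). Lbr, which is also a receptor for lamins in the nuclear envelope, was called higher at 0.43 but turned to -0.10 under upper quartile scaling and -0.38 with raw totals; relative to the median of all genes it lay 0.31 above under each of the 4 scalings.

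The SREBP machinery was lower in CV testes with 1 exception. Srebf1 stood at 14.7, 16.8, 18.1 and 16.4 CPM in CV testes, against 60.4, 81.9, 59.1 and 72 CPM in CV ovaries, and its log2 fold change was -2.05 ± 0.11. Srebf2, the isoform best known for sterol genes, differed less, at 20.4, 23.6, 22.6 and 24 CPM in CV testes and 48.4, 46.2, 40.2 and 40.4 CPM in CV ovaries, a log2 fold change of -0.96 ± 0.082. Scap stood at 27.3, 29.6, 29.3 and 32.7 CPM in CV testes, against 149, 129, 129 and 129 CPM in CV ovaries, and its difference of -2.18 ± 0.071 was the most negative of the 26. The proteases Mbtps1 and Mbtps2 were lower by similar amounts, with log2 fold changes of -1.58 ± 0.051 and -1.60 ± 0.078. The exception was Insig2. It stood at 48.1, 47.7, 53.1 and 54.7 CPM in CV testes, against 21, 21, 20.6 and 21.4 CPM in CV ovaries, with a log2 fold change of 1.28 ± 0.065 (SE), adjusted p = 4.18e-10 (edgeR), whereas Insig1 stood at 30.4, 31.4, 24.8 and 30.2 CPM in CV testes, against 82.1, 80.1, 75 and 61.3 CPM in CV ovaries, with a log2 fold change of -1.36 ± 0.098. Stard4 was lower too, at 6.76 to 9.32 CPM in CV testes and 18.4 to 24.5 CPM in CV ovaries.

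**Figure D2:**
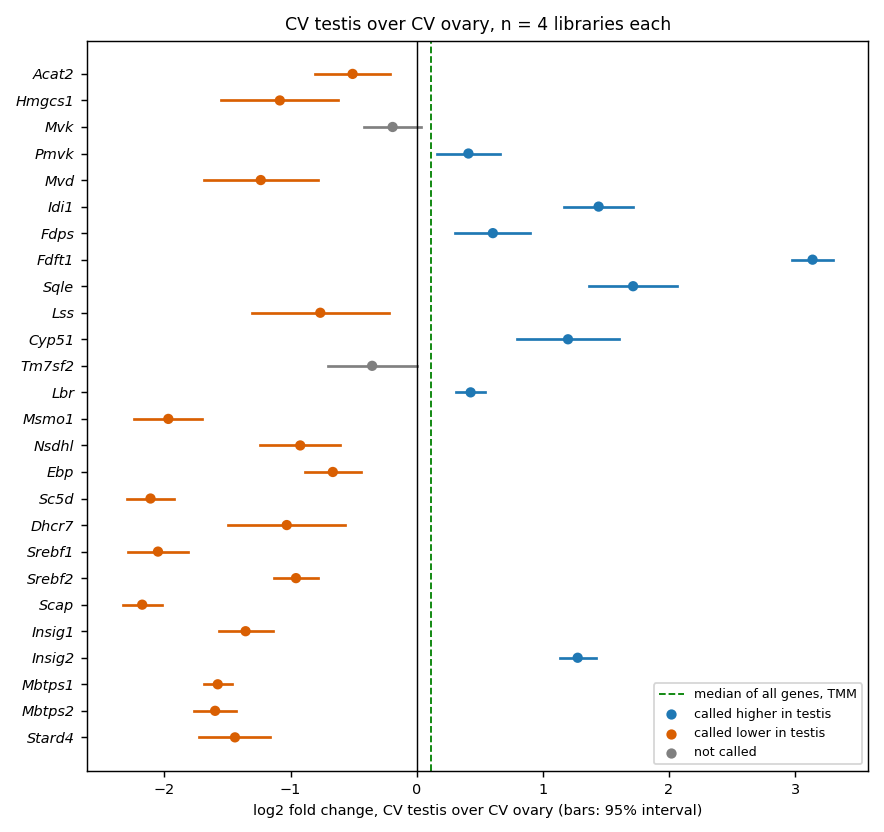
Log2 fold change of each gene, CV testis over CV ovary (n = 4 libraries each), with its 95% interval, in pathway order. The points right of 0 are Fdft1 at 3.14, Sqle at 1.71, Idi1 at 1.44, Insig2 at 1.28 and Cyp51 at 1.2, with Fdps, Lbr and Pmvk nearer 0 and below it with raw totals; the dashed line is the median of all genes under TMM.

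Ratios of 2 counts within a library do not depend on how libraries are scaled; the pairs below were chosen after their values were seen. Reads of Cyp51 outnumbered those of Msmo1 by 6.41 to 8.61 in CV testes, against ratios of 0.631 to 0.946 in CV ovaries. The ratio of Fdft1 to Fdps was 6.44 to 6.99 in CV testes and 0.924 to 1.49 in CV ovaries. Insig2 over Insig1 was 1.52 to 2.14 in CV testes and 0.255 to 0.349 in CV ovaries. Srebf1 over Srebf2 was 0.685 to 0.804 in CV testes and 1.25 to 1.78 in CV ovaries. In all 4 pairs the gonads did not overlap. The gene with more reads changed between the CV organs for Cyp51 and Msmo1, for Insig2 and Insig1, and for Srebf1 and Srebf2. Reads are not corrected for gene length. Per kilobase of merged exon, Srebf1 and Srebf2 stood at 2.93 ± 0.248 and 3.15 ± 0.226 CPM in CV testes (SD, n = 4), which did not differ beyond their spread. The GF libraries gave ratios on the same side, for example 6.05 to 7.02 in GF testes and 0.503 to 0.798 in GF ovaries for Cyp51 over Msmo1.

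Levels of different genes were set against each other per kilobase of merged exon. In CV testes Fdft1 led with a level of 127 ± 1.95 CPM per kb (SD, n = 4), followed by Cyp51 at 38.9 ± 1.82, Sqle at 28.4 ± 0.448 and Hmgcs1 at 26.2 ± 1.32 CPM per kb. In CV ovaries Hmgcs1 led with a level of 55.4 ± 16.4 CPM per kb, followed by Insig1 at 24.1 ± 3.03, Sc5d at 23.1 ± 2.04, Scap at 18 ± 1.37 and Cyp51 at 16.9 ± 4.5. Insig1 and Sc5d did not differ beyond their spread, nor did Scap and Cyp51, and the order after Hmgcs1 changed with the length of the longest transcript, under which Msmo1 came second. The order of the first 7 genes in CV testes was the same with both lengths.

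The second comparison was between GF and CV ovaries. None of the 26 genes was called higher in GF ovaries, where 0.111% of all genes tested were, and none was called lower, where 0.0663% were. DESeq2 also called none, and 1 gene, Insig2, had an unadjusted p under 0.05 in edgeR. The libraries' numbers were taken to pair GF and CV ovaries, though the correlations between ovaries do not single out these pairs (processing section). With that block, which left out GF ovary 5 for want of a partner, still none of the 26 was called. Of all genes tested, 91 were called under the block, in place of 32 without it. Values below are CPM scaled within the tissue. Insig2 stood at 30.7, 27.4, 32.2, 29.3 and 34.9 CPM in GF ovaries, against 26.7, 26.8, 26.2 and 27.4 CPM in CV ovaries. The lowest GF value lay just above the highest CV value, and the test gave a log2 fold change of 0.21 ± 0.077 (SE), adjusted p = 0.683 (edgeR). Mbtps2 was the other gene whose groups did not overlap, at 47.8, 46.8, 42.2, 48.3 and 48.2 CPM in GF ovaries, against 49.7, 48.5, 53.3 and 50.02 CPM in CV ovaries, with a log2 fold change of -0.11 ± 0.06 (SE), adjusted p = 0.81 (edgeR). Groups that do not overlap made up 2.72% of all genes.

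Of the 26 genes, 22 had a positive log2 fold change in GF over CV ovaries, against 51.7% of all genes, and the median was 0.09, against 0.006 over all genes. That lean moved with the libraries left out. Without GF ovary 1, 8 of the 26 were positive and the median was -0.07. Without CV ovary 4, 14 were positive with a median of 0.02, and without CV ovary 3, 17 with a median of 0.04. Leaving out any 1 of the other 6 ovaries gave 18 to 23 positive and medians of 0.09 to 0.20. With the replicate block 23 were positive and the median was 0.12. With the summed luteal marker level as a covariate, an alternative chosen after seeing the data, 8 were positive, and with the adipocyte marker level, likewise chosen, 12 were. The intervals of the ovary test were wide: that of Hmgcs1 ran over -0.51 to 0.84, that of Dhcr7 over -0.62 to 1.11 and that of Mvd over -0.88 to 0.96 on the log2 scale.

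**Figure D3:**
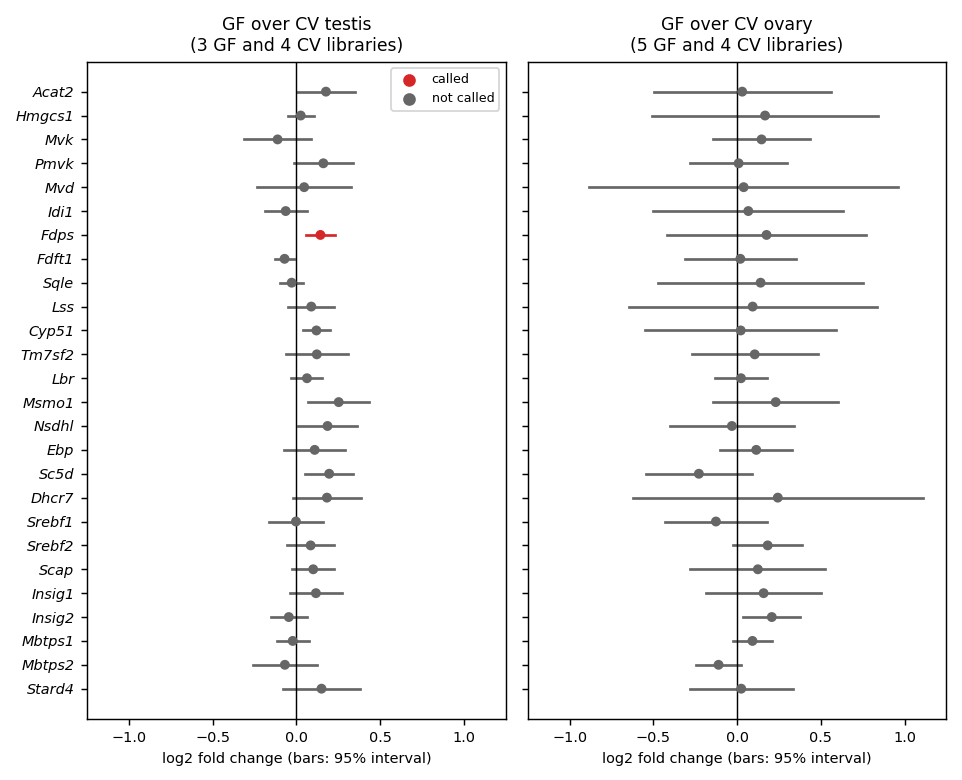
Log2 fold change of each gene in GF over CV testes (left, 3 and 4 libraries) and in GF over CV ovaries (right, 5 and 4 libraries), with 95% intervals. Fdps in the testis, at 0.14, is the 1 called gene, and the testis intervals are narrower than the ovary intervals for most genes but not for Mbtps2.

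Differences between single ovaries were larger than the difference between the groups. GF ovary 1 was the highest of the 9 ovaries for 15 of the 26 genes, as it was for 13.3% of all genes. Hmgcs1 stood at 629, 271, 271, 322 and 332 CPM in GF ovaries, against 463, 309, 282 and 246 CPM in CV ovaries. GF ovary 1 was the highest and CV ovary 1 the second highest, and the other 7 libraries of both groups overlapped. Dhcr7 showed the same pair, with 65.5, 25.4, 23.3, 26 and 20.3 CPM in GF ovaries, against 39.8, 23.2, 22.4 and 23.2 CPM in CV ovaries. Lss stood at 113, 53.5, 57.4, 75.5 and 40.4 CPM in GF ovaries, against 95.5, 58.9, 54.7 and 45.8 CPM in CV ovaries, again with library 1 of each group on top and GF ovary 5 at the bottom. Sqle, Mvd, Fdps and Cyp51 had the same library on top, at 106.8, 32, 127.9 and 131.4 CPM in GF ovary 1. The 2 proteases varied less: Mbtps1 ranged over 223 to 250.5 CPM in GF ovaries and 206 to 231 CPM in CV ovaries. Sc5d and Srebf1 did not follow the pattern, with GF ovary 1 inside the range of the other ovaries for Sc5d and at the bottom for Srebf1, at 68 CPM. The median coefficient of variation of the 26 genes was 20.7% in GF ovaries and 13.4% in CV ovaries, against 13.4% and 11% over all genes.

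**Figure D4:**
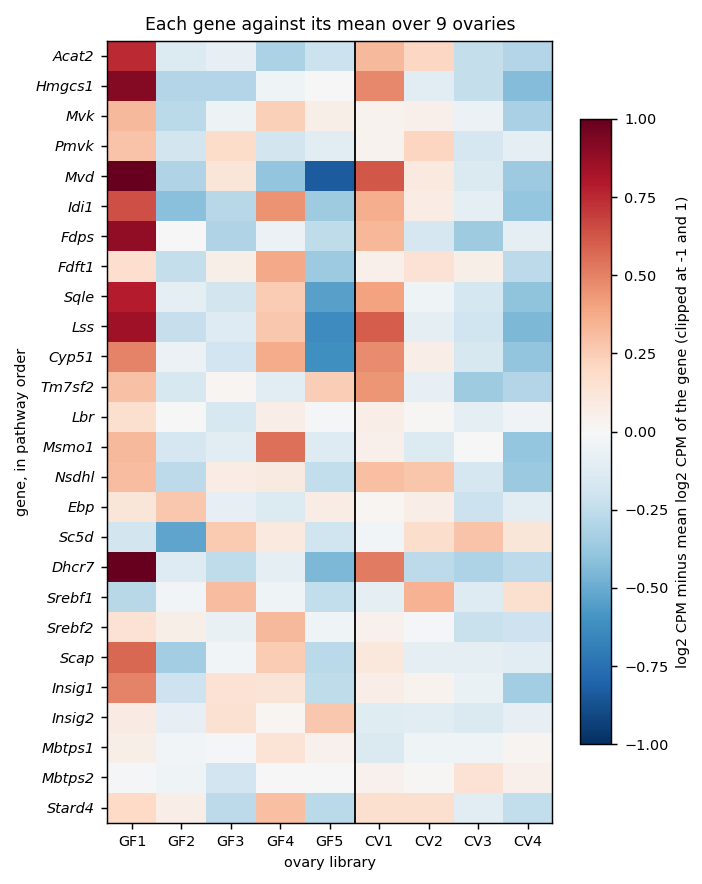
Log2 CPM of each gene in each ovary library minus the gene's mean over the 9 ovaries, GF libraries left of the line and CV libraries right of it. The columns GF1 and CV1 are red for most enzymes, while Lbr, Mbtps1 and Mbtps2 are pale throughout.

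The ovary libraries also differed in markers of luteal and steroidogenic cells, the cells that take up and use cholesterol for hormones. The summed level of 10 such genes was 13487, 8456, 8854, 9735 and 7370 CPM in GF ovaries, against 10227, 7846, 8130 and 8921 CPM in CV ovaries. The same libraries, GF 1 and CV 1, were highest. Over the 9 ovaries 22 of the 26 genes had a positive Pearson's r with that sum, with a median r of 0.58. An unadjusted p under 0.05 in a two-sided exact permutation test was found for 12 of the 26. After Benjamini-Hochberg adjustment over the 26 genes, 10 stayed under 0.05 by Pearson's r and 1, Dhcr7, by Spearman's rho. The relation was not computed for all genes, so the share of all genes with such values is not known. For Dhcr7 r was 0.94 (exact permutation p = 0.000243) and Spearman's rho was 0.92 (exact permutation p = 0.00131, 26 relations computed). Without GF ovaries 1 and 5, the libraries farthest from the median sum, Dhcr7 kept an r of 0.78 (exact permutation p = 0.0175, n = 7), the median r was 0.32 and no other gene had an unadjusted p under 0.05, with fewer libraries to test. Fdps, Scap, Sqle and Lss had r of 0.91, 0.91, 0.89 and 0.89 over 9 ovaries and 0.71, 0.70, 0.66 and 0.73 over 7. The permutations treat the 9 ovaries as independent. Same-numbered GF and CV ovaries, and some differently numbered ones, deviated together, so these p-values may be too small. Without the pair GF ovary 1 and CV ovary 1, an alternative chosen after seeing the data, Dhcr7 had an r of 0.80 (exact permutation p = 0.0343, n = 7), while Hmgcs1 turned to an r of -0.32, against 0.79 over 9 ovaries. The luteal sum was higher in the GF ovary of all 4 same-numbered pairs, which were paired by the labels' numbers only. A count of pairs therefore only asks whether a gene was higher in the GF ovary. Dhcr7, Fdps, Insig2, Mbtps1 and Srebf2 were higher there in all 4 pairs, and the other genes in 0 to 3. Of these 5 genes, Insig2 and Mbtps1 had r of only -0.006 and 0.16 with the sum, so the count does not separate Dhcr7 from them. Relations to Hmgcs1 itself were positive for 22 of the other 25 genes with a median r of 0.70, which was 0.22 without GF ovary 1 and CV ovary 1. After adjustment over the 25 genes, 13 had a permutation p under 0.05 by Pearson's r and 0 by Spearman's rho. The share over all genes was not computed for these relations either. Adipocyte markers varied still more, with summed levels between 34.8 and 1559 CPM in GF ovaries and between 132.6 and 1801 CPM in CV ovaries; the part of either cell type in the values of the 26 genes was not tested beyond these covariates.

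**Figure D5:**
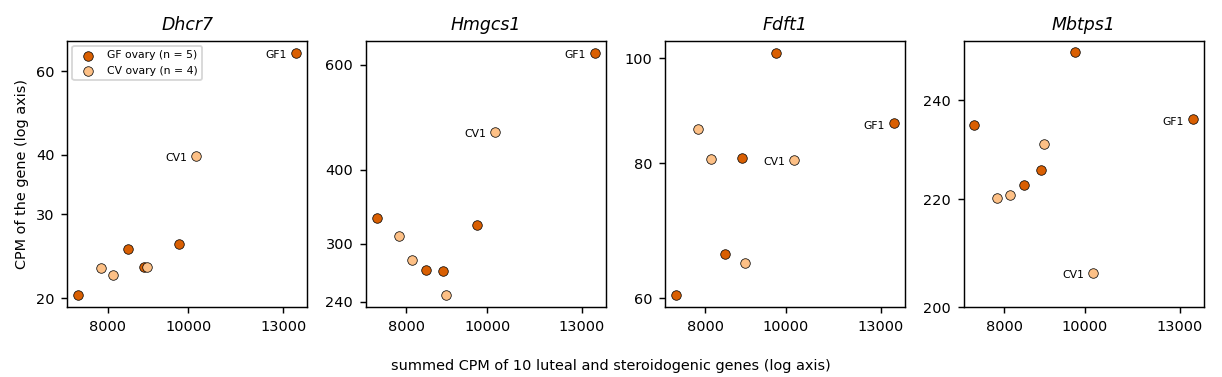
CPM of 4 genes, picked after seeing their values, against the summed CPM of 10 luteal and steroidogenic genes in the 9 ovaries, both on log axes. Dhcr7 and Hmgcs1 are highest in GF1, the library with the highest sum, while Fdft1 and Mbtps1 are highest in another GF library.

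The third comparison was the same one in the testis, where replicates were closer: the biological coefficient of variation was 4.17% there and 18.5% in the ovary. Of the 26 genes, 1 was called higher in GF testes, where 3.67% of all genes tested were, and none was called lower, where 4.41% were. The called gene was Fdps, which makes farnesyl diphosphate, the branch point to sterols, dolichol and prenyl groups. It stood at 65.4, 67 and 60.7 CPM in GF testes, against 59.2, 61.5, 57.1 and 55.3 CPM in CV testes. The lowest GF value lay below the highest CV value, and the test gave a log2 fold change of 0.14 ± 0.044 (SE), adjusted p = 0.0333 (edgeR), a 1.1-fold difference. The call was lost in DESeq2 (adjusted p = 0.0756), and without GF testis 1 or 2 or CV testis 1, 3 or 4, with adjusted p between 0.0555 and 0.256 in edgeR. The log2 fold change itself stayed at 0.14 in DESeq2 and between 0.11 and 0.15 without those libraries.

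A further 6 genes had an unadjusted p under 0.05 without passing the adjustment, as 19.4% of all genes did before it. Msmo1 stood at 21, 20.5 and 22.2 CPM in GF testes, against 19.5, 20.2, 14.5 and 17.1 CPM in CV testes, with a log2 fold change of 0.25 ± 0.086 (SE), adjusted p = 0.0865 (edgeR). Sc5d stood at 22.3, 21.5 and 21.3 CPM in GF testes, against 20.9, 19.7, 16 and 19.3 CPM in CV testes, with a log2 fold change of 0.20 ± 0.07 (SE), adjusted p = 0.0838 (edgeR). In both genes every GF value lay above every CV value. Fdft1, the most abundant of the 26 in this organ, stood at 382, 369 and 368 CPM in GF testes, against 397, 396, 388 and 387 CPM in CV testes. Its GF values were all below its CV values, with a log2 fold change of -0.07 ± 0.028 (SE), adjusted p = 0.121 (edgeR). These 3 were the genes whose groups did not overlap, where 17.1% of all genes had such groups. Cyp51 gave a log2 fold change of 0.12 ± 0.039 (SE), adjusted p = 0.056 (edgeR), and without the filter on low counts Cyp51 and Msmo1 were called at adjusted p of 0.0213 and 0.00493. In all, 18 of the 26 log2 fold changes were positive, against 51.2% of all genes, with a median of 0.09. The ratio of Fdft1 to Fdps reads was 5.51 to 6.07 in GF testes and 6.44 to 6.99 in CV testes. This pair was chosen after its values were seen. It divides a gene lower in all GF testes by the 1 gene called higher, so the gap adds nothing to those results. How many other ratios separate GF from CV testes was not computed. For the other pairs the GF and CV testis ranges overlapped. They were 6.05 to 7.02 and 6.41 to 8.61 for Cyp51 over Msmo1, and 1.37 to 1.73 and 1.52 to 2.14 for Insig2 over Insig1. Srebf1 over Srebf2 was 0.656 to 0.747 and 0.685 to 0.804.

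Markers of germ cell stages differed between the same testis libraries. Of all genes tested, 3.67% were called higher and 4.41% lower in GF testes. Of 6 round spermatid markers 5 were called lower in GF testes. The summed level of the 6 was 778 to 804 CPM in GF testes and 828 to 893 CPM in CV testes. Of 6 spermatocyte markers 1 was called higher and 2 lower, and of 6 elongating spermatid markers 1 was called lower. None of 6 spermatogonia, 6 Sertoli, and 8 theca and Leydig markers was called. The part of these markers in the values of the 26 genes was not tested.

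The difference between the gonads in their response was tested directly, by subtracting the ovary's GF over CV log2 fold change from the testis's. None of the 26 genes was called higher in this test, where 0.0728% of all genes were, or lower, where 0.0592% were. DESeq2 called none of them either. In edgeR 1 gene, Insig2, had an unadjusted p under 0.05, with a log2 fold change of -0.27 ± 0.1 (SE), adjusted p = 0.6. Sc5d had the largest positive value, 0.40 (95% interval -0.00 to 0.81). The interval of Mvd ran over -1.12 to 1.09 and that of Dhcr7 over -1.11 to 0.95, so that for these genes a difference between the organs of that size was not detectable at this spread.

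Genes around the pathway, from lists written from textbook knowledge, were counted in the same fits. Of 12 genes for sterol-stimulated degradation at the endoplasmic reticulum, which removes pathway enzymes and Insig proteins, 11 were called higher and 1 lower in CV testes than in CV ovaries, against 47.4% and 43.8% of all genes. The counts were 8 and 2 under upper quartile scaling, against 40.1% and 52% of all genes, and 7 and 5 with raw totals, against 36.6% and 56.2%. The ubiquitin ligase Rnf139 led them, with a log2 fold change of 4.22 ± 0.048. Of 8 transcription factors known to act with SREBPs, 7 were called lower and 1, Crem, was higher at 4.54 ± 0.068; Crem, a cAMP-responsive activator of spermatid genes, is also on the round spermatid list. Of 9 genes of the oxysterol and LXR arm 2 were higher and 6 lower. The counts were 2 and 5 of 7 other sterol enzymes, 4 and 8 of 13 genes of the isoprenoid branch, and 3 and 8 of 13 other SREBP targets. In GF ovaries the 1 called gene of these lists was Ggps1, geranylgeranyl diphosphate synthase, with a log2 fold change of -0.62 ± 0.076 and an adjusted p of 0.00506 in edgeR. It stands among the 7 other sterol enzymes tested and among the 13 isoprenoid genes. Of all genes tested, 0.0663% were called lower in GF ovaries. In GF testes Rnf139 (-0.09), Crem (-0.10) and Lpin1 (-0.09) were called lower and Acly, ATP citrate lyase, higher (0.18), each as a log2 fold change. That was 1 of 12 degradation genes, 1 of 8 transcription factors, and 1 lower and 1 higher of 13 other SREBP targets. None of the other lists had a called gene there. Of all genes tested, 3.67% were called higher and 4.41% lower in GF testes.

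The position of some of the 26 genes bears on how their counts are read. Hmgcs1 lies on chromosome 13 at 119690379 to 119708260 (GRCm38), 281 kb from Nnt, a mitochondrial transhydrogenase gene that was called higher in GF in both organs. Nnt averaged 159 ± 19.8 CPM in GF ovaries and 74.3 ± 2.62 CPM in CV ovaries (SD, n = 5 and 4), and 101 ± 3.11 CPM in GF testes and 77.6 ± 2.21 CPM in CV testes (SD, n = 3 and 4). Hmgcs1 itself was called in neither organ, with log2 fold changes of 0.17 and 0.03. Of 10 genes tested within 1 Mb of it, Nnt alone was called in GF over CV ovaries. In GF over CV testes 2 of 10 were called, Nnt and Paip1. The labels give 1 strain name for all groups. Nnt is known to differ between substrains of C57BL/6, and a difference of substrain between GF and CV animals, which would touch every GF over CV value here, was not tested. Fdft1 overlaps Ctsb, and Cyp51 overlaps Akap9, in exons on opposite strands. Ctsb was called lower in GF testes (log2 fold change -0.21 ± 0.046) and Akap9 likewise (-0.10 ± 0.033), while both had log2 fold changes in CV testes over CV ovaries opposite to those of Fdft1 and Cyp51 (-3.58 and -0.95). Lss likewise overlaps 4930483K19Rik on the opposite strand, which was higher in CV testes (6.31) where Lss was lower. Srebf1 and Lbr overlap, on opposite strands, genes that differed in their own direction between the CV gonads, namely Rai1 (-2.87) and Dnahc14 (5.34). Tm7sf2, Mbtps2 and Lbr overlap Vps51 (0.16), Yy2 (-1.22) and a 5S_rRNA gene (0.24) in exons on the same strand. The counts of these 7 genes, and of Scap, which overlaps 5830462I19Rik on the opposite strand, are uncertain to that extent. The library kit keeps strand, and whether the counting used it is not given in the sources used here.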

How the data were processed

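The authors deposited raw exon counts per gene for 16 libraries, made from paired reads of 100 cycles; per the submitters' processing notes STAR 2.4.0i and build mm10 were used, and per the labels' protocols 250 ng of total RNA was depleted of ribosomal RNA and prepared with a stranded kit. For the counting tool, its strand setting and its annotation no source used here gives a name. Positions came from GENCODE M21 and promoter sequences from RefSeq (GRCm38.p6).

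The 26 genes, the lists around them, the tests and the alternatives were chosen with earlier results of these data known. The counts as deposited were tested with edgeR 4.0.16 in R 4.3.3 (robust quasi-likelihood F test, TMM scaling, edgeR's expression filter). Tests were run in each organ, over all 16 libraries for the interaction, and in CV libraries between organs. The same fit was later run on data simulated with the spread it had estimated, and that outcome is not given here. CPM used TMM library sizes over the libraries of 1 organ for GF against CV, and over all 16 libraries for levels between organs. Correlations used exact permutation tests (scipy 1.17.1). All 26 genes are named, ordered by role; genes of other lists were named after their values were seen, where called.

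Same-numbered GF and CV ovaries deviated together, with correlations of 0.37, 0.25, 0.20 and 0.36. So did some differently numbered ones: CV ovary 2 with GF ovary 5 (0.38) and GF ovary 3 (0.23), and CV ovary 3 with GF ovary 4 (0.24). Other differently numbered ovaries went down to -0.43. The replicate numbers of the labels were taken to pair ovaries, though no label says what they mark and these correlations do not single out the pairs. Replicate pairs differed by more than sampling noise, with chi-square per degree of freedom from 2.37 to 34.3, and each library was counted once. The alternatives were DESeq2 1.42.0 and its size factors, limma-voom (limma 3.58.1), no filter, upper quartile scaling, raw totals, a replicate block, a joint fit, each library left out, and 2 marker covariates added after seeing the data. For Sqle, Fdft1, Fdps and Stard4 no promoter window was used.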

Additional observations from a re-analysis of the deposited data

Results flagged for a closer look

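In 78 groups of 4 or 5 libraries, 8 values stood far from the rest of their group by Dixon's ratio of the gap to the range; chance flags about 1 in 20 groups. Of the 8 values 4 lay in 1 library: GF ovary 1 was high for Acat2 (38.5 CPM, other GF ovaries 18.4 to 21.7), Hmgcs1 (628.6 CPM, others 270.5 to 332), Fdps (127.9 CPM, others 56.3 to 69.5) and Dhcr7 (65.5 CPM, others 20.3 to 26). CV ovary 1 was high for Dhcr7 (39.8 CPM, other CV ovaries 22.4 to 23.2) and Scap (189.996 CPM, others 164.4 to 165.2). GF ovary 3 was low for Mbtps2, the site-2 protease, at 42.2 CPM against 46.8 to 48.3 CPM in the other GF ovaries. CV testis 3 was low for Dhcr7, at 6.01 CPM against 8.05 to 8.25 CPM in the other CV testes. GF ovary 1 and CV ovary 1 also had the highest summed luteal marker levels of their groups, and the part of those cells in these values was not tested.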

How the results depend on the processing

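In GF over CV ovaries and in the interaction, none of the 26 genes was called under any alternative run, by any tool or with any library left out. In GF over CV testes, where 1 gene was called higher, 3 were called higher without the filter on low counts (Fdps, Cyp51 and Msmo1), and 0 in DESeq2, 0 in the joint fit of 16 libraries and 0 with the replicate block. That block, which left out CV testis 4, gave Fdps an adjusted p of 0.0944 in edgeR; same-numbered testes did not deviate together (correlations of -0.04, 0.01 and -0.03), so the testes share only a number. Leaving out 1 library gave 0 to 3 genes called higher and 0 to 1 called lower, which was Fdft1 without CV testis 4. The number of genes called in the whole table also moved: in the ovary 32 became 95 in DESeq2, 91 with the replicate block and 93 in the joint fit, in the testis 1638 became 122 in the joint fit and 996 without GF testis 2, and in the interaction 29 became 127 in DESeq2 and 13 to 19 without any 1 of the testis libraries. The cause of these changes was not tested. The replicate block changed no other call.

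In CV testis over CV ovary, where 8 were called higher, upper quartile scaling gave 5 and raw totals 4; Pmvk turned to -0.12 and -0.39, Lbr to -0.10 and -0.38, and Fdps with raw totals to -0.20. The median of all genes moved with them, to -0.41 and -0.69. GF testes over GF ovaries gave 7 higher and 17 lower. Acat2 (-0.38, adjusted p = 0.15) and Fdps (0.56, adjusted p = 0.0688) were not called there in edgeR. Mvk and Tm7sf2 became called lower under upper quartile scaling, with raw totals, in the GF contrast and without CV ovary 4. Without the 2 ovaries farthest from the median, the relation to Hmgcs1 turned to r = -0.37 for Mvd, -0.11 for Fdps and -0.21 for Dhcr7, and 1 relation had an unadjusted p under 0.05, against 14 over 9 ovaries. Without the pair GF ovary 1 and CV ovary 1, the relation of Hmgcs1 to the luteal sum turned to r = -0.32. Ovary libraries were shallower than testis libraries, and how far depth limits the ovary values was not tested.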
